A study of Mus musculus with 32 samples.

Results

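The comparison is that of Western diet with normal diet in the livers of male mice whose pellets held no E171, a food-grade titanium dioxide additive. Its members are the 16 arrays of the Western diet control group (8 mice) and the normal diet control group (8 mice), of 32 arrays in the series, and they were chosen by their labels alone. The other 16 arrays are of male mice given E171, 8 on each diet, with an intended daily dose of 10 mg per kg. All were F1 C57BL/6J mice with no genetic change named in the labels, born to dams that ate control pellets in the case of the control groups, and killed at 21 weeks of age. Western diet mice changed to that diet at 5 weeks of age and stayed on it for 16 weeks. The group labels speak of a Western diet and the treatment protocol of a high fat diet, and the sources used here name neither the composition of the food nor the litter of each mouse, the hour of killing or any fasting. The 8 mice of a group were taken as independent samples, although some may be littermates. The series asks how E171 acts on the liver on either diet, and its control mice allow the diets to be compared without the additive. The labels give 8 males drawn at random for each group.

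The liver takes up dietary fat and sugar, stores a surplus of fatty acids as triglyceride in droplets of the hepatocyte, and secretes most plasma proteins, among them lipoproteins, complement and clotting factors. Hepatocytes differ by position: those around the central vein carry out much of the oxidation of foreign compounds, and those around the portal tract most of the urea and glucose synthesis. In fatty liver, resident macrophages (Kupffer cells) are joined by cells derived from blood monocytes, and stellate cells and portal fibroblasts can lay down collagen.

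Each mouse gave 1 one-colour array of whole liver RNA. Levels are log2 of the intensity relative to the 75th percentile of the same array, so that a level of 0 is that percentile, and a difference of 1 is 2-fold. The 16 arrays had 33697 to 37071 probes well above background, 0 saturated spots and a 75th percentile of 214 to 342 intensity units. The mean 75th percentile was 255 on the normal diet and 300 on the Western diet, and the mean number of such probes 34900 and 36000. Since levels are relative to that percentile, this may bear on the split of calls by direction, which was not tested. They lay on 4 slides, each with 2 mice of either group. Arrays of a group correlated at 0.981 or more with each other, and Western diet mice 5 and 6 correlated least with the rest of their group (mean r 0.986 and 0.986). The number of arrays limits the precision of every value.

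The tissue carried the markers of liver cells. All 12 hepatocyte markers listed were well above background on every array, and albumin (Alb) lay between 10.73 and 11.08 (median 10.81) on the normal diet and between 10.33 and 10.89 (median 10.57) on the Western diet. In bulk liver, fewer cells of a type and less RNA per cell cannot be told apart. Of the 12 markers, 0 passed as higher and 10 as lower at the scaling used here, with a median difference of -0.29 and a mean level of 9.29 to 9.66 against 8.79 to 9.40. After quantile normalization 3 were higher and 3 lower, with a median of -0.00, so the direction of the abundant hepatocyte genes depends on the scaling and small falls of such genes below are to be read with that. Of 4 tested markers of exocrine pancreas (9 listed), 0 were higher and 3 lower, with a mean level of -0.10 to 0.45 on the normal diet and -1.06 to -0.66 on the Western diet. Among them the acinar elastase Cela2a fell by 1.82 (SE 0.17, adjusted p = 1.23e-09).

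In total 11143 of 23382 genes tested passed an adjusted p of 0.05 (47.7%), by moderated t tests in limma with adjustment over all genes. Of these 4352 were higher (18.6% of genes tested) and 6791 lower (29%) on the Western diet. The median difference of all genes was -0.10, and 57.4% of the calls were smaller than 0.5 on the log2 scale. Among the larger changes the balance was the other way: 1266 genes rose by 2-fold or more (5.41%) and 412 fell by 2-fold or more (1.76%). The mice of the groups did not overlap at all for 2353 genes (10.1%), 1084 higher (4.64%) and 1269 lower (5.43%). With the deposited log2 table in place of the raw intensities 5213 genes were higher and 4357 lower, so the split of the calls by direction depends on the scaling. With normexp background correction, which shrinks dim probes, 459 genes rose and 159 fell by 2-fold or more, and 1447 of the 1678 genes kept their call and direction. Of the 161 called genes named here, 56 had a difference smaller by over 1.5 times under that correction, and the sizes of dim genes are to be read with that.

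**Figure D1:**
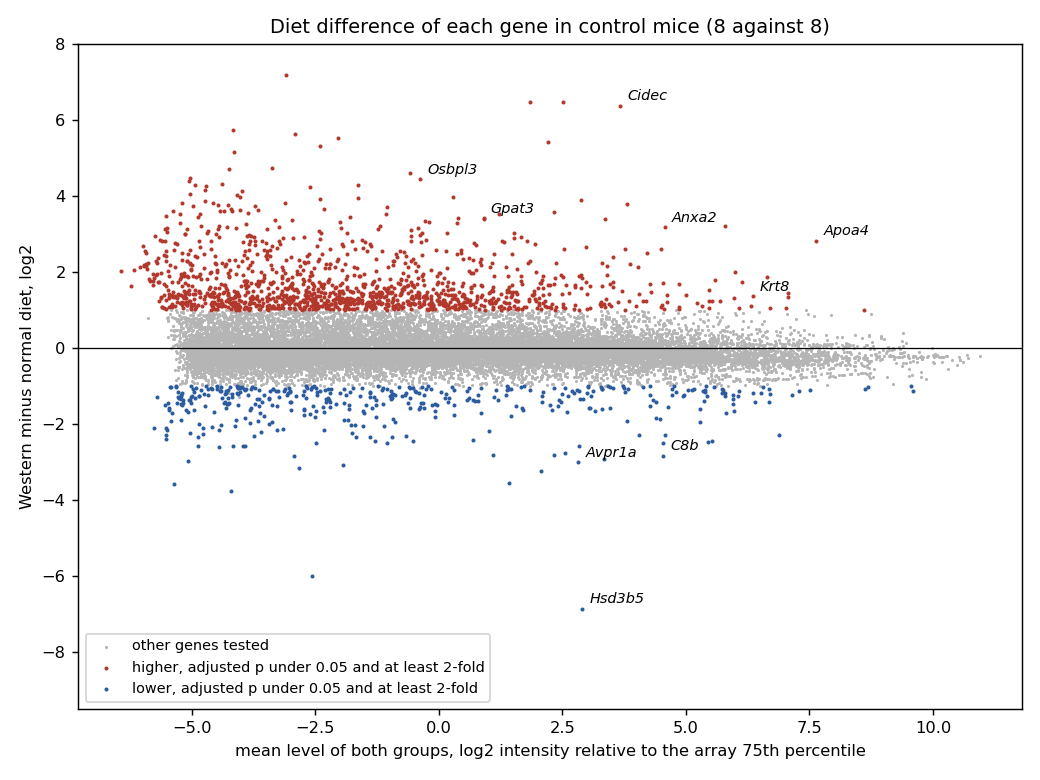
Difference between Western and normal diet (log2, vertical axis) against the mean level of both groups (log2 intensity relative to the array 75th percentile, horizontal axis) for the 23382 genes tested, 8 mice against 8. Red and blue points are the 1266 genes that rose and the 412 that fell by 2-fold or more with an adjusted p under 0.05, and genes near background are drawn at their measured difference.

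Beyond the lipid droplet proteins Cidea and Cidec (6.48 and 6.37), the large rises included genes of lipid traffic, ubiquitin-like modification and sulfation. Osbpl3, an oxysterol-binding protein at membrane contact sites (probe at chr6:50247064-50247123, mm9), lay between -3.61 and -1.68 (median -2.55) on the normal diet and between 1.05 and 2.51 (median 2.04) on the Western diet. No Western diet mouse came near a normal diet mouse, and the difference was 4.43 (SE 0.23, adjusted p = 5.58e-15). Ubd, a ubiquitin-like modifier induced by inflammatory cytokines (probe at chr17:37332688-37332747), went from -3.85 to -1.32 (median -3.37) up to 0.24 to 3.02 (median 1.93), a difference of 4.61 (SE 0.49, adjusted p = 1.04e-08). Slc35f2, a transporter of the solute carrier family, rose by 3.72 (SE 0.23), and Ttc39a, which holds tetratricopeptide repeats, by 4.28 (SE 0.35), with 1.09 to 4.55 over its 3 probes. Sult1e1, the estrogen sulfotransferase, ranged widely among Western diet mice, from -1.50 to 4.31 (median -0.20), against -5.29 to -1.80 (median -3.53) on the normal diet. Its groups did not overlap, and it rose by 3.95 (SE 0.65, adjusted p = 1.17e-05). Gm10639, a gene model without a functional name, rose by 3.77 (SE 0.27), and Lcn2, lipocalin 2, by 3.90 (SE 0.56).

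Several genes were measured on 1 diet only and are known by a bound, the fold over the background limit. Insyn1, an inhibitory synapse protein, was at least 9.74-fold higher on the Western diet (adjusted p = 1.36e-12). Fam183b and Ms4a4a, a membrane protein of macrophages, were at least 7.6-fold (adjusted p = 3.46e-13) and 6.95-fold higher (adjusted p = 1.28e-11). In the other direction Gm30896 was at least 3.58-fold (adjusted p = 4.65e-09) and Tmeff2, a transmembrane protein with follistatin domains, at least 2.11-fold lower (adjusted p = 1.13e-05). These bounds hold for the intensities used here only. With normexp correction the log2 differences were 1.04 for Insyn1, 0.83 for Fam183b and 0.69 for Ms4a4a. They were -0.56 for Gm30896 and -0.46 for Tmeff2, and all 5 were smaller than the bounds. In all, 123 called genes were not well above background on any normal diet array and 14 on any Western diet array.

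Large falls included receptors, transporters and secreted peptides of the hepatocyte. Avpr1a, the vasopressin receptor of the liver (probe at chr10:121890416-121890475), lay between 3.78 and 4.88 (median 4.24) on the normal diet and in the narrow range of 1.16 to 1.62 (median 1.30) on the Western diet. The groups were far apart, and the fall was 3.00 on the log2 scale (SE 0.16, adjusted p = 8.05e-15). Slc22a7, an organic anion transporter of the sinusoidal membrane, fell by 2.92 (SE 0.37), from 4.26 to 5.46 (median 4.67) to 0.51 to 4.04 (median 1.93). Enho, which encodes the secreted peptide adropin, dropped from 2.76 to 4.59 (median 3.80) to 0.50 to 1.27 (median 0.91), a difference of -2.83 (SE 0.23, adjusted p = 7.77e-11). For these genes too the groups did not overlap. Falls with small errors were seen in Gpr162, an orphan receptor (-1.67, SE 0.10), Cadm4, a cell adhesion molecule (-2.49, SE 0.18), Srgap3, a GTPase-activating protein (-2.16, SE 0.18), and Hgfac, the activator of hepatocyte growth factor (-1.18, SE 0.10). Their differences were -1.10, -1.68, -1.08 and -1.14 with normexp correction. The ribosomal protein gene Rpl27a fell by only 0.55 (SE 0.04, adjusted p = 2.82e-11), yet its 8 Western diet mice (6.29 to 6.49, median 6.37) all lay below the 8 normal diet mice (6.80 to 7.03, median 6.95). With quantile normalization its difference was -0.33.

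**Figure D2:**
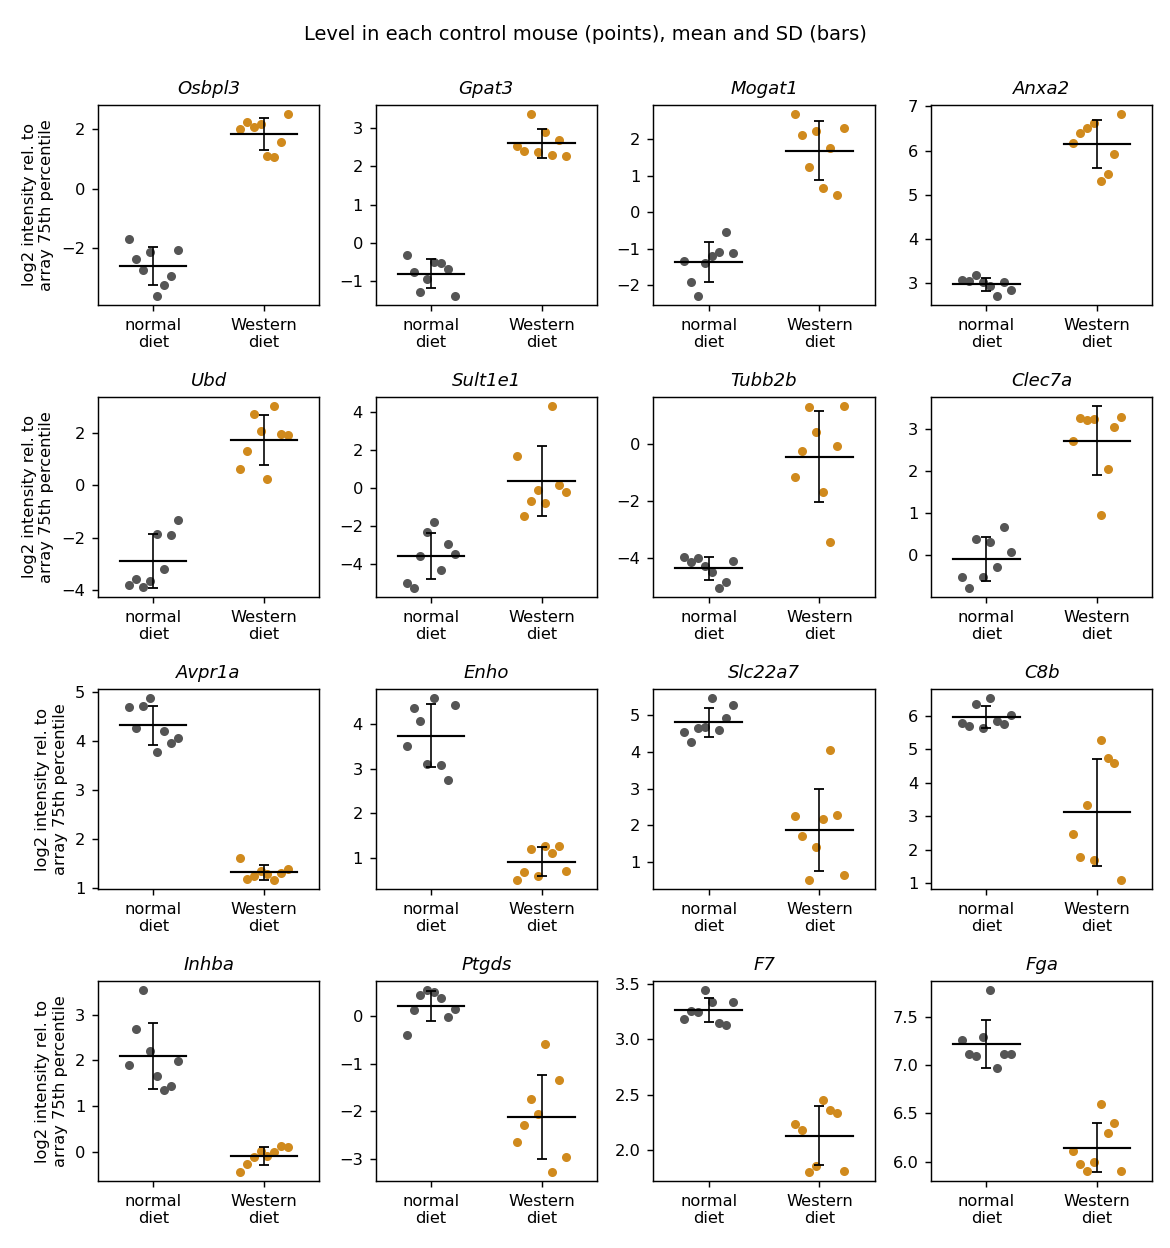
Level of 16 genes in each of the 16 control mice (points, log2 intensity relative to the array 75th percentile), with the mean (line) and SD (bar) of each group of 8. The groups do not overlap in any of the 16 panels, and C8b, Slc22a7, Sult1e1 and Tubb2b spread more widely on the Western than on the normal diet.

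The members of 37 pathway lists were counted against the shares among all genes tested, 18.6% higher and 29% lower. Lists of matrix, cytoskeleton and macrophage genes had more members higher than that share, and lists of plasma proteins, nuclear receptors and apolipoproteins more members lower. A gene dim on 1 diet enters the test through the other diet, so the counts describe tested members and not whole families.

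**Figure D3:**
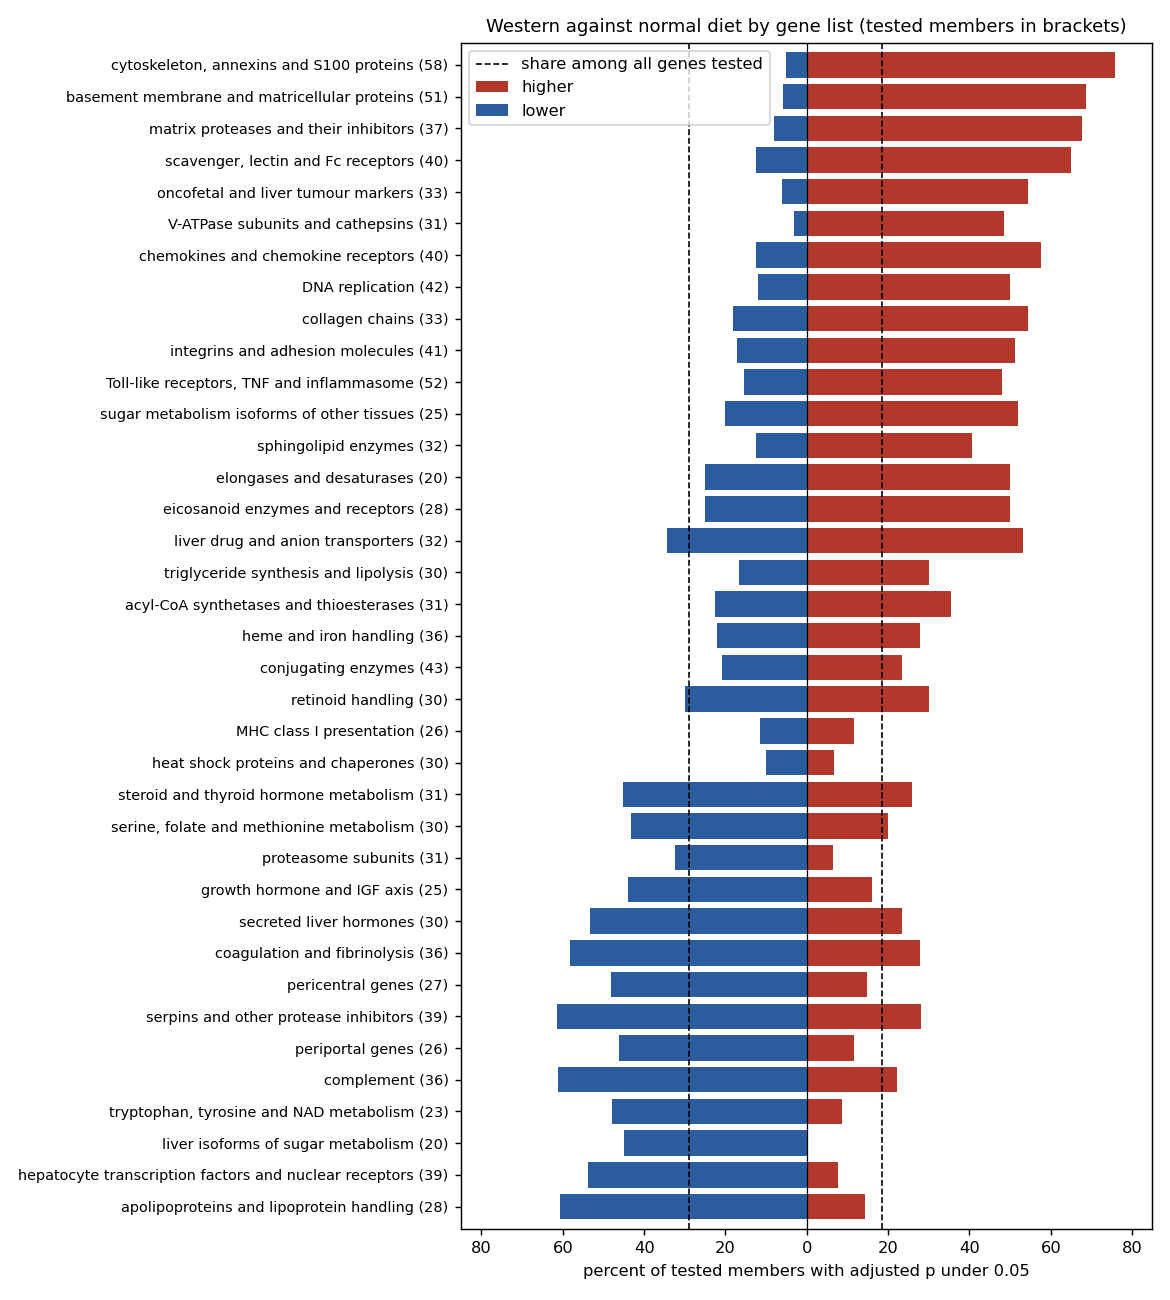
Share of tested members (number in brackets) that passed an adjusted p of 0.05 as higher (red, to the right) or lower (blue, to the left) on the Western diet, for 37 gene lists. Dashed lines mark the shares among all 23382 genes tested, 18.6% higher and 29% lower.

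Enzymes that build and remodel fat moved unequally. Of 30 genes of triglyceride synthesis and lipolysis, all tested, 9 were higher and 5 lower (median 0.12). Gpat3, which attaches the first acyl chain to glycerol 3-phosphate (probe at chr5:101328054-101328113, mm9), rose from between -1.39 and -0.31 (median -0.71) to between 2.28 and 3.37 (median 2.47). Mogat1, which makes diacylglycerol from monoacylglycerol, rose from between -2.29 and -0.53 (median -1.26) to between 0.48 and 2.69 (median 1.93). Neither gene had overlapping groups, and the difference was 3.40 for Gpat3 (SE 0.17, adjusted p = 5.58e-15) and 3.04 for Mogat1 (SE 0.26, adjusted p = 1.98e-10). Lpl, the lipase that releases fatty acids from lipoproteins and is normally low in adult hepatocytes, rose by 1.91 (SE 0.21), with -0.03 to 2.10 over its 6 probes. Dgat2, the main enzyme of the last step in hepatocytes, fell by 0.56 (SE 0.08), or by 0.34 with quantile normalization.

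In the list of elongases and desaturases, 10 of 20 tested genes were higher and 5 lower (21 listed, median 0.21). Scd2, the stearoyl-CoA desaturase of brain and fetal liver, rose by 2.48 (SE 0.33) and Elovl7, an elongase of saturated chains, by 2.29 (SE 0.40), both with overlapping groups. The rise of Elovl7 was 1.09 with normexp correction. Scd1, the desaturase of adult liver, rose by 0.38 (SE 0.10). Fads2, the first desaturase of polyunsaturated fatty acids, rose by 1.01 (SE 0.12). Elovl3, an elongase under hormonal and circadian control, fell from 5.91 to 6.57 (median 6.31) to 3.17 to 5.72 (median 4.38), a difference of -1.94 (SE 0.30, adjusted p = 4.12e-06) with no overlap.

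Of 31 tested acyl-CoA synthetases and thioesterases, 11 were higher and 7 lower (32 listed, median 0.11). Acot2, a mitochondrial thioesterase, rose by 2.27 (SE 0.22), Acot10 by 1.52 (SE 0.21) and Acot9 by 1.39 (SE 0.13), all with groups apart. These rises were 2.01, 0.60 and 1.16 with normexp correction. The acetyl-CoA synthetases split: Acss1 of the mitochondrion rose by 1.37 (SE 0.19), and Acss2 of the cytosol, which supplies lipid synthesis, fell by 1.25 (SE 0.26). Acsm2, a medium-chain synthetase, fell by 2.06 (SE 0.30). Acss1 differed by 0.54 and Acsm2 by -0.64 with normexp correction. Acot genes are close paralogs, and probes for them may share signal.

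Among 32 tested sphingolipid enzymes (34 listed), 13 were higher and 4 lower (median 0.05). Smpd3, a neutral sphingomyelinase that makes ceramide, rose by 3.29 (SE 0.46) but with a broad range on the normal diet, -2.98 to 0.94 (median -1.28), against 0.73 to 2.79 (median 2.12). Sphk1, which makes sphingosine 1-phosphate, rose by 1.55 (SE 0.22). Of 28 tested eicosanoid enzymes and receptors (33 listed), 14 were higher and 7 lower (median 0.32), a median that was -0.03 with normexp background correction. Hpgds, the prostaglandin D synthase of blood cells, rose by 2.32 (SE 0.33), with its probe above background on 3 of 8 normal diet arrays, and Ptgir, the prostacyclin receptor, by 2.02 (SE 0.23), above background on 4 of 8. With normexp correction these were 0.33 and 0.41. Ptgds, the lipocalin-type prostaglandin D synthase, fell from -0.39 to 0.55 (median 0.26) to -3.29 to -0.59 (median -2.18), a difference of -2.34 (SE 0.36, adjusted p = 4.23e-06). The pair of enzymes that make the same prostaglandin thus moved in opposite directions.

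Of 28 apolipoprotein and lipoprotein genes, all tested, 4 were higher and 17 lower (median -0.23, or -0.06 with quantile normalization, where 6 were higher and 10 lower). Vldlr, a lipoprotein receptor, rose by 1.56 (SE 0.30), and Apoc2, the cofactor of lipoprotein lipase, by 1.01 (SE 0.08) with 7.96 to 8.22 (median 8.12) against 8.79 to 9.49 (median 9.09). Apom, the carrier of sphingosine 1-phosphate, fell by 1.49 (SE 0.26). Angptl8, an inhibitor of lipoprotein lipase induced by feeding, fell by 1.15 (SE 0.38). Apob, the structural protein of secreted lipoproteins, differed by -0.06 (SE 0.07, adjusted p = 0.544).

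Sugar metabolism showed a contrast between liver isoforms and isoforms typical of other tissues. Of 20 liver isoforms, all tested, 0 were higher and 9 lower (median -0.19); with quantile normalization 4 were higher and 7 lower. G6pc, the glucose 6-phosphatase that lets the liver release glucose, fell by 1.18 (SE 0.27), Slc2a5, a fructose transporter, by 0.98 (SE 0.22), and Pklr, the liver pyruvate kinase, by 0.83 (SE 0.22), all with overlapping groups. Of 25 tested isoforms of other tissues (26 listed), 13 were higher and 5 lower (median 0.32). Hk2, the hexokinase of muscle and fat, rose from between -3.78 and -2.57 (median -3.23) to between -1.89 and -0.46 (median -0.83), a difference of 2.34 (SE 0.20, adjusted p = 1.6e-10) that was 1.23 with normexp correction. Slc16a3, a lactate exporter, rose by 1.68 (SE 0.20), and Pkm, the pyruvate kinase of proliferating cells, by 1.13 (SE 0.14). Aldoc, an aldolase isoform of brain that liver also expresses, fell by 1.26 (SE 0.21).

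Both G6pc and Aldoc hold a motif in their promoters that was searched for in all promoters of the RefSeq table (build GRCm38.p6, windows from 250 bases before to 50 after the start). The HNF1 motif GTTAATNAT, read by HNF1 homeodomain factors of liver, was present on either strand in 0.801% of 32851 windows, in 0.567% of those of genes tested, in 2.42% of the 289 windows of genes at least 2-fold lower and in 0.572% of the 1049 windows of genes at least 2-fold higher. The sterol regulatory element TCACNCCAC, bound by SREBP factors, was in 1.24% of all windows, 1.16% of those of genes tested, 3.11% of those of lower genes and 1.33% of those of higher genes. These shares carry no test, rest on 7 and 9 windows of lower genes, and describe letters and not binding. Promoters were found for 228 of the 412 lower genes and 844 of the 1266 higher genes only. A gene with several windows is counted once for each. The 250 bases before the start are shown to place the motifs, with the matching letters in capitals. In G6pc the match begins 221 bases before the start (chr11:101367466-101367715, plus strand), and in Aldoc 80 bases before it (chr11:78322823-78323072, plus strand).
G6pc: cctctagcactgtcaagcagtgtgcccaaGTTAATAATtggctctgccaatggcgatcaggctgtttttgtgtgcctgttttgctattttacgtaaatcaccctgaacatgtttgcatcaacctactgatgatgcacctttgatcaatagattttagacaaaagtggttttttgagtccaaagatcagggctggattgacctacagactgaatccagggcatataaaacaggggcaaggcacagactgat
Aldoc: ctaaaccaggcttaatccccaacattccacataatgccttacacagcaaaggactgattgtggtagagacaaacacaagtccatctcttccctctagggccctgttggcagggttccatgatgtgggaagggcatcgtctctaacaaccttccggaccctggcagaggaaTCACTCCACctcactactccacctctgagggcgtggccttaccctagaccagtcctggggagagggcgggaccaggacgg

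Metabolism of serine, folate and methionine fell in 13 of 30 genes, all tested, and rose in 6 (median -0.20, or -0.07 with quantile normalization). The rises lay in serine synthesis and the mitochondrial folate branch: Mthfd1l, a formate-producing enzyme, rose by 2.73 (SE 0.29, above background on 4 of 8 normal diet arrays), Psat1 by 1.08 (SE 0.25), Mthfd2 by 0.79 (SE 0.25) and Phgdh, the first enzyme of serine synthesis, by 0.68 (SE 0.20). With normexp correction they were 0.62, 0.60, 0.36 and 0.24. The falls included Shmt1, the cytosolic serine hydroxymethyltransferase, by 0.61 (SE 0.08), and Pipox, a sarcosine oxidase, by 0.77 (SE 0.10), both with groups apart. Of 23 tested genes of tryptophan, tyrosine and NAD metabolism (24 listed), 2 were higher and 11 lower (median -0.28), or 3 and 8 with quantile normalization. Aox1, an aldehyde oxidase, rose by 0.85 (SE 0.11) and its neighbour in sequence Aox3 fell by 0.70 (SE 0.19). Nampt, the rate-limiting enzyme of NAD salvage, rose by 0.52 (SE 0.13), and Haao, of the pathway from tryptophan to NAD, fell by 0.58 (SE 0.10).

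Of 39 tested transcription factors and nuclear receptors (40 listed), 3 were higher and 21 lower (median -0.30), and 5 and 12 with quantile normalization (median -0.18). Pparg, the fat storage receptor that is low in normal liver, rose from between 1.13 and 2.57 (median 1.43) to between 2.85 and 3.88 (median 3.45), a difference of 1.86 (SE 0.18, adjusted p = 1.37e-09). Ppard, a related receptor, fell by 1.06 (SE 0.22). Hnf4a, a master regulator of the hepatocyte, fell by 0.49 (SE 0.12; 0.26 with quantile normalization) and the pioneer factor Foxa2 by 0.73 (SE 0.24). Srebf1, which drives fatty acid synthesis, rose by 0.62 (SE 0.23), a call that was lost without normal diet mouse 5 (0.50).

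In the growth hormone and IGF axis 4 of 25 tested genes were higher and 11 lower (27 listed, median -0.32), or 4 and 7 with quantile normalization (median -0.20). Egfr, a growth factor receptor abundant in liver, fell by 1.26 (SE 0.31; -2.61 to -1.26 over its 4 probes), and Igfbp2, an IGF binding protein, by 1.10 (SE 0.20). Of 30 tested secreted liver hormones (32 listed), 7 were higher and 16 lower (median -0.35; 9 and 11 with quantile normalization). Gdf15, a stress hormone that lowers appetite, rose by 1.92 (SE 0.35), and Inhbb, an activin subunit, by 1.09 (SE 0.24). Inhba, the subunit of activin A, fell from between 1.36 and 3.54 (median 1.94) to between -0.45 and 0.13 (median -0.05), a difference of -2.18 (SE 0.30, adjusted p = 6.76e-07). The activin subunits thus moved in opposite directions.

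Of 27 pericentral genes, all tested, 4 were higher and 13 lower (median -0.37), and of 26 periportal genes, all tested, 3 were higher and 12 lower (median -0.20). After quantile normalization the counts were 7 and 10, and 3 and 8. Cyp1a2, an oxidase of drugs and caffeine around the central vein, fell from 2.91 to 3.46 (median 3.17) to 0.72 to 2.43 (median 1.88), a difference of -1.42 (SE 0.19, adjusted p = 4.86e-07). Cyp2c54 and Cyp2c37, close paralogs that oxidise fatty acids, fell by 1.72 (SE 0.34) and 1.43 (SE 0.32), each with overlapping groups. Slc13a3, a dicarboxylate transporter, and Rhbg, an ammonium transporter, are pericentral too and rose by 1.02 (SE 0.21) and 0.96 (SE 0.21). Glul, the glutamine synthetase of the innermost pericentral layer, differed by -0.01 (SE 0.12, adjusted p = 0.971). On the portal side Aldh1b1 rose by 1.66 (SE 0.20).

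Of 36 tested complement genes (37 listed), 8 were higher and 22 lower (median -0.37; 9 and 19 with quantile normalization). Receptors and C1q subunits of macrophages were among the higher: C5ar1, the C5a receptor, rose by 1.82 (SE 0.25), C3ar1, the C3a receptor, by 1.38 (SE 0.18), and C1qb by 1.25 (SE 0.27). These rises were 0.60, 0.71 and 1.24 with normexp correction. C8b, a subunit of the membrane attack complex (probe at chr4:104477094-104477153, mm9), fell from between 5.62 and 6.52 (median 5.81) to between 1.09 and 5.27 (median 2.90), a difference of -2.83 (SE 0.45, adjusted p = 7.29e-06). C8a, its partner chain, fell by 0.82 (SE 0.20). C3, the central component, fell by 0.41 (SE 0.09), a call that quantile normalization and the deposited table did not keep.

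Of 36 tested coagulation and fibrinolysis genes (37 listed), 10 were higher and 21 lower (median -0.35), or 10 and 18 with quantile normalization. Groups were apart for 14 of the 36, against 10.1% of all genes tested. Clotting factors made by hepatocytes were lower: F7 lay between 3.13 and 3.45 (median 3.26) on the normal diet and between 1.79 and 2.45 (median 2.21) on the Western diet, a difference of -1.14 (SE 0.10, adjusted p = 5.46e-10). F11 fell by 1.09 (SE 0.18) and the fibrinogen chain Fga by 1.07 (SE 0.12). Plat, the tissue plasminogen activator, rose by 2.64 (SE 0.32) and Plaur, the urokinase receptor, by 1.76 (SE 0.21), both with groups apart. Normexp correction gave 0.848 for Plat and 1.085 for Plaur. F13a1, the clot-stabilising transglutaminase chain of macrophages and platelets, rose by 2.77 (SE 0.37), with 0.71 and 2.77 over its 2 probes. Its rise was 0.78 with normexp correction.

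Serpins and other protease inhibitors were lower in 24 and higher in 11 of 39 tested genes (40 listed, median -0.41, or -0.27 with quantile normalization). Spink1, a trypsin inhibitor of pancreas and of liver tumours, rose from between -4.02 and -1.39 (median -2.97) to between -0.93 and 2.07 (median 0.64), a difference of 3.52 (SE 0.41, adjusted p = 5.31e-08). Serpina9, a serpin of the alpha-1-antitrypsin cluster, and Itih3, an inter-alpha-trypsin inhibitor chain, fell by 2.35 (SE 0.51) and 1.14 (SE 0.14).

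Of 32 tested drug and anion transporters (33 listed), 17 were higher and 11 lower (median 0.27, or 0.42 with quantile normalization). Among the largest rises of the list were those of Abcb1a and Abcb1b, the P-glycoprotein genes (1.69, SE 0.23, and 1.36, SE 0.17), and Slc51b, a subunit of the basolateral bile acid exporter (1.15, SE 0.35). These were 1.05, 0.67 and 0.36 with normexp correction. Among uptake carriers Slc22a7 fell as given above, Slco1a1 by 2.76 (SE 0.53) and Slco2a1, a prostaglandin carrier, by 1.69 (SE 0.20), with -1.69 to -0.29 over its 3 probes. Slc22a27, an organic anion transporter of mouse liver, rose by 3.16 (SE 0.36). Among 43 tested conjugating enzymes (50 listed), 10 were higher and 9 lower (median -0.07), or 12 and 7 with quantile normalization (median 0.08). Gstm2, a glutathione transferase, rose by 1.24 (SE 0.17), and Gstp1, the pi class enzyme of male mouse liver, fell by 1.27 (SE 0.17). Sult2a8, a sulfotransferase of bile acids, fell by 1.65 (SE 0.32).

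Of 31 tested genes of steroid and thyroid hormone metabolism (33 listed), 8 were higher and 14 lower (median -0.33; 10 and 11 with quantile normalization). Cbr3, a carbonyl reductase, rose by 2.58 (SE 0.35), and Hsd11b1, which regenerates active glucocorticoid, fell from 6.88 to 7.38 (median 7.05) to 5.34 to 6.45 (median 6.07), a difference of -1.03 (SE 0.12, adjusted p = 7.01e-08) with no overlap. Of 30 tested retinoid genes (32 listed), 9 were higher and 9 lower (median -0.03), or 12 and 5 with quantile normalization. Rbp7, a retinol binding protein of fat and vessels, was higher by an uncertain amount (2.48, 0.90 with the deposited table and 0.27 with normexp correction), since its probe was above background on 1 of 8 normal diet arrays. Rdh11, a retinal reductase, fell by 1.36 (SE 0.20). Of 36 heme and iron genes, all tested, 10 were higher and 8 lower (median 0.06), or 15 and 4 with quantile normalization (median 0.12). Flvcr2, a choline and heme transporter, rose from between -2.27 and -0.83 (median -1.80) to between -0.15 and 0.56 (median 0.04), a difference of 1.78 (SE 0.23, adjusted p = 2.5e-07). Tfrc, the transferrin receptor, rose by 0.82 (SE 0.24) and Tfr2, the iron sensor of the hepatocyte, fell by 0.53 (SE 0.09).

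Of 40 tested scavenger, lectin and Fc receptors (42 listed), 26 were higher and 5 lower (median 0.88, or 0.57 with normexp correction). Clec7a (dectin-1), a receptor for fungal glucans, rose from between -0.78 and 0.68 (median -0.10) to between 0.96 and 3.29 (median 3.13), a difference of 2.80 (SE 0.28, adjusted p = 2.5e-09) with no overlap. Lgals3, galectin-3, rose by 2.61 (SE 0.29). Clec4e (Mincle), a sensor of damaged cells, was at least 4.2-fold higher (adjusted p = 2.65e-09). With normexp correction its log2 difference was 0.57, smaller than that bound. Cd209f, a lectin of the resident macrophage, was lower by an uncertain amount (-2.23, -0.90 with the deposited table and -0.51 with normexp correction), since its probe was above background on 1 of 8 Western diet arrays.

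Of 40 tested chemokines and their receptors (44 listed), 23 were higher and 5 lower (median 0.93, or 0.34 with normexp correction). The list does not hold the chemokine Cxcl13, which differed by -3.155 (SE 0.595, adjusted p = 7.22e-05). Cxcl13 was not among the 161 genes followed under the alternatives. Ccl2, the ligand that draws monocytes, rose from between -0.51 and 1.69 (median 0.15) to between 2.19 and 3.17 (median 2.69), a difference of 2.47 (SE 0.25, adjusted p = 3.03e-09). Cx3cr1, the fractalkine receptor of monocyte-derived cells, rose by 3.03 (SE 0.30). Cxcl5, a neutrophil attractant, was higher by an uncertain amount (3.76, or 0.73 with normexp correction), since its probe was above background on 1 of 8 normal diet arrays. In the list of Toll-like receptors, TNF and inflammasome genes, 25 of 52 tested members were higher and 8 lower (53 listed, median 0.36, or 0.17 with normexp correction). Il1rn, the natural antagonist of interleukin-1, rose by 2.69 (SE 0.27; 1.26 and 2.69 over its 2 probes), Tlr1 by 2.21 (SE 0.27) and Tnfaip3 (A20), an inhibitor of NF-kB, by 1.66 (SE 0.20). Il1b, interleukin-1 beta, differed by 0.31 (SE 0.33, adjusted p = 0.449). Tlr4, the endotoxin receptor, differed by 0.07 (SE 0.07, adjusted p = 0.409). Nlrp6, an inflammasome sensor of epithelia, fell by 1.04 (SE 0.15). The 2 probes of Tnf gave opposite signs, -1.57 and 1.64, so its direction is not known. It is counted among the 8 lower by its probe of higher mean.

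Few MHC class I genes passed: 3 of 26 tested were higher and 3 lower (27 listed, median -0.03). B2m, the shared light chain, differed by -0.01 (SE 0.09, adjusted p = 0.902), and H2-Q1 rose by 2.00 (SE 0.25). With quantile normalization 10 were higher and 0 lower. Of 31 tested V-ATPase subunits and cathepsins (32 listed), 15 were higher and 1 lower (median 0.20). Ctse, a cathepsin of immune cells and stomach, was at least 3.87-fold higher (adjusted p = 3.05e-08), and Ctsk, the collagen-degrading cathepsin, rose by 1.42 (SE 0.24). With normexp correction the log2 difference of Ctse was 0.40, smaller than its bound.

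Markers of cell types were counted in the same way. Some are shared between lists, so the counts are not independent. Cdh5 is in those of Kupffer and endothelial cells, and Spp1 in those of lipid-associated macrophages and bile ducts. Fn1, counted lower among the monocyte markers, is also a gene of the hepatocyte. Of 11 monocyte markers 7 were higher and 3 lower (median 0.97), with a mean level of 0.30 to 0.67 on the normal diet and 1.18 to 1.80 on the Western diet, without overlap. Chil3, a marker of classical monocytes, rose by 2.90 (SE 0.29), or by 1.13 with normexp correction. Of 11 markers of lipid-associated macrophages 9 were higher and 1 lower (median 1.91), and the mean level went from between -0.13 and 0.64 to between 1.33 and 3.33. The 1 lower was Fabp5, a fatty acid binding protein that hepatocytes also make, which fell from 5.33 to 8.08 (median 6.88) to 2.97 to 4.55 (median 4.33), a difference of -2.49 (SE 0.30, adjusted p = 8.3e-08). Kupffer cell markers were mixed, 6 higher and 1 lower of 12 (median 0.25), with overlapping mean levels of 1.31 to 2.94 and 1.76 to 2.83. Clec4f and Timd4, which mark resident Kupffer cells most specifically, did not pass: Clec4f differed by 0.10 (SE 0.18, adjusted p = 0.656), Timd4 by -0.51 (SE 0.28, adjusted p = 0.145). T and NK cell markers were higher in 2 and lower in 2 of 12 tested (14 listed), and B cell markers in 1 and 1 of 6 tested (8 listed). Whether these markers moved by cell number or by level per cell was not tested.

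Motifs of immune factors were searched in the same promoter windows. The PU.1 motif GAGGAAGT, bound by the myeloid factor PU.1, was in 3.2% of all windows, 3.08% of those of genes tested, 5.05% of those of the higher genes and 2.42% of those of the lower genes. The NF-kB motif GGGANTTTC was in 1.11%, 1.05%, 2.29% and 0.692%. Of the 13 motifs searched, the AP-1 motif TGANTCA was in 6.03% of windows of genes tested, 9.25% of those of the higher genes and 10.0% of those of the lower genes, and the STAT5 motif TTCCNNGAA in 4.56%, 4.1% and 7.27%. In the same order the antioxidant response element TGACNNNGC was in 13.7%, 15.1% and 11.8%, the PPAR response element AGGTCAAAG in 0.396%, 0.763% and 0.692%, and the HNF4A motif CAAAGTCCA in 0.544%, 0.667% and 0.692%. The E2F motif TTTCCCGC was in 1.64%, 1.43% and 0.692%, and the TATA box TATAAA in 9.4%, 10.7% and 13.5%. None of these shares was tested. The promoters of Mmp12, the macrophage elastase, and of Ubd are shown because both genes rose and hold the respective motif. The Mmp12 probe was above background on 2 of 8 normal diet arrays, so the size of its rise is uncertain (5.62, or 2.23 with normexp correction). In Mmp12 the PU.1 letters lie on the minus strand and begin 88 bases before the start (chr9:7344147-7344396, plus strand), and in Ubd the NF-kB match begins 206 bases before it (chr17:37193642-37193891, plus strand).
Mmp12: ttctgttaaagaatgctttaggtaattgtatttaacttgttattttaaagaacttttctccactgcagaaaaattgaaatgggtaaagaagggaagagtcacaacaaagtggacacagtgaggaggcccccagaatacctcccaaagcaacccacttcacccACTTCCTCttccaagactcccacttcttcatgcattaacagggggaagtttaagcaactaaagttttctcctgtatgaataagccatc
Ubd: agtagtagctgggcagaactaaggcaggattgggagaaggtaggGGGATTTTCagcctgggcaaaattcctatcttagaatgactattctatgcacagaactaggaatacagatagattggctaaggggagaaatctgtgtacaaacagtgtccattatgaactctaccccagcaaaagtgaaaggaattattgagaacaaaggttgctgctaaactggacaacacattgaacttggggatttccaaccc

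Of 33 tested collagen chains (40 listed), 18 were higher and 6 lower (median 0.78, or 0.15 with normexp correction). Both chains of type I collagen rose: Col1a2 lay between 1.79 and 2.91 (median 2.25) on the normal diet and between 3.21 and 5.41 (median 4.62) on the Western diet, a difference of 2.15 (SE 0.25, adjusted p = 3.44e-08), and Col1a1 differed by 3.02 (SE 0.31). Col2a1, the collagen of cartilage, rose by 2.24 (SE 0.29), or by 0.87 with normexp correction. Col20a1 fell by 1.69 (SE 0.16). In the list of basement membrane and matricellular proteins, 35 of 51 tested members were higher and 3 lower (53 listed, median 0.71, or 0.46 with normexp correction). Thbs1, thrombospondin-1, rose by 1.89 (SE 0.25). Lama3, a laminin chain, fell by 2.07 (SE 0.30), and Fn1, the plasma fibronectin gene of the hepatocyte, by 0.63 (SE 0.07; 0.41 with quantile normalization). Of 37 tested matrix proteases and inhibitors (42 listed), 25 were higher and 3 lower (median 0.78, or 0.45 with normexp correction). Mmp7, matrilysin, rose by 3.07 (SE 0.63), and Adamts4, an aggrecanase, by 2.56 (SE 0.24). Normexp correction gave 1.41 for Mmp7 and 1.67 for Adamts4. Reck, a membrane-anchored inhibitor of matrix proteases, fell from 0.37 to 1.41 (median 0.73) to -0.77 to -0.17 (median -0.55), a difference of -1.32 (SE 0.15, adjusted p = 4.98e-08).

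Of 10 portal fibroblast markers 7 were higher and 0 lower (median 1.12, or 0.62 with normexp correction), and their mean level went from between -1.38 and -0.87 to between -0.69 and 0.37, without overlap. Fbln2, fibulin-2, rose by 1.60 (SE 0.18). Of 10 stellate cell markers 6 were higher and 1 lower (median 0.42), with overlapping mean levels of 1.27 to 1.87 and 1.68 to 2.28. Of 13 endothelial markers 5 were higher and 2 lower (median 0.09), and of 10 bile duct markers 6 were higher and 1 lower (median 0.80, or 0.30 with normexp correction). Tspan8, a tetraspanin of ducts, rose by 2.04 (SE 0.39), and Sox9, a factor of ducts and progenitors, differed by 0.01 (SE 0.17, adjusted p = 0.958). The part of these cell types in the matrix counts was not tested. Of 41 tested integrins and adhesion molecules (45 listed), 21 were higher and 7 lower (median 0.28), among them Itga4, the leukocyte integrin chain, with a rise of 1.46 (SE 0.17).

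Of the 37 pathway lists, the highest share of raised members was in the list of cytoskeleton, annexin and S100 genes. There 44 of 58, all tested, were higher and 3 lower (median 0.72). Groups were apart for 22 of the 58, against 10.1% of all genes tested. Anxa2, a membrane-binding annexin, went from between 2.71 and 3.17 (median 3.02) to between 5.32 and 6.83 (median 6.29), with no overlap and a difference of 3.18 (SE 0.17, adjusted p = 5.91e-15). Krt8, a keratin of hepatocytes and ducts, rose from between 5.56 and 5.80 (median 5.64) to between 6.71 and 7.40 (median 7.04), a difference of 1.37 (SE 0.09, adjusted p = 5.56e-13). S100a11, a calcium-binding protein, rose by 2.73 (SE 0.21) and Krt23, a keratin of stressed liver, by 2.31 (SE 0.28). Tubb2b, a tubulin of the developing brain, rose by 3.92 (SE 0.47), or 2.07 with normexp correction, and its probe may also read close tubulin paralogs. Krt20, a keratin of gut epithelium, was higher by an uncertain amount (4.16, or 0.93 with normexp correction), above background on 1 of 8 normal diet arrays and 6 of 8 Western diet arrays.

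Of 33 tested oncofetal and liver tumour markers (38 listed), 18 were higher and 2 lower (median 0.59), or 17 and 6 with normexp correction (median 0.39). H19, an imprinted fetal RNA, rose by 2.74 (SE 0.63), with a wide range of -2.73 to 1.95 (median -0.88) on the Western diet against -4.73 to -1.95 (median -3.44). Cdkn2a, a cell cycle inhibitor of senescent cells, rose by 1.62 (SE 0.28), or by 0.51 with normexp correction. Gpc3, a marker of hepatocellular carcinoma, differed by -0.02 (SE 0.39, adjusted p = 0.965). Lpl, Scd2, Cd44, Spink1 and Lgals1, counted in this list, are among those also counted in others.

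DNA replication genes rose in 21 of 42 tested members and fell in 5 (43 listed, median 0.22). Uhrf1, which guides DNA methylation after replication, rose by 1.96 (SE 0.26), and Mcm2, a subunit of the replicative helicase, from between -2.61 and -1.67 (median -1.92) to between -1.44 and -0.05 (median -0.28), a difference of 1.57 (SE 0.17, adjusted p = 1.22e-08). Pcna, the sliding clamp, differed by 0.10 (SE 0.07, adjusted p = 0.251), and Mcm10 fell by 0.96 (SE 0.29). The Mcm10 probe lay between 3.364 and 6.36 over the 16 mice, and that of Ung, also counted lower, between 5.634 and 7.765. Both lay far above Mcm2, and what these probes read was not tested. Top2a, the topoisomerase of dividing cells, rose by 2.30 (SE 0.26, adjusted p = 2.88e-08). Its promoter is shown because such genes are known for repeated CCAAT boxes and cell cycle homology regions, and the window holds 6 CCAAT letters on either strand and 2 matches to TTTGAA (chr11:99024190-99024439, minus strand). CCAAT alone was in 37.4% of all windows, 37.5% of those of genes tested, 37.1% of those of the higher genes and 40.1% of those of the lower genes, and TTTGAA in 17.9%, 13.4%, 17.4% and 15.9%.
Top2a: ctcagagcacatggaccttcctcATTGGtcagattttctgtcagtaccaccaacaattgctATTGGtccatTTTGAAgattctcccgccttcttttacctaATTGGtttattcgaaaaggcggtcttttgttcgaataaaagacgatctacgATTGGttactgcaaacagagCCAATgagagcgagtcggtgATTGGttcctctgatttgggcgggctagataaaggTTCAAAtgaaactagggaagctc

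Of 30 heat shock and chaperone genes, all tested, 2 were higher and 3 lower (median -0.08; 6 and 2 with quantile normalization, median 0.02), and of 31 proteasome subunits, all tested, 2 were higher and 10 lower (median -0.11). The proteasome count turned to 9 higher and 0 lower with quantile normalization, so no direction is given for either list. Hspb1, a small heat shock protein, was 1 of the 2 higher, with a rise of 1.31 (SE 0.20) from between 4.13 and 6.30 (median 5.30) to between 6.29 and 7.12 (median 6.58).

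The Western diet mice differed among themselves. For Trem2, a receptor of lipid-laden macrophages, Western diet mice 5 and 6 were at 0.71 and 1.17 and the other 6 between 2.09 and 3.21. For Col1a1 they were at 1.60 and 2.17 against 2.71 to 4.19, and for Top2a at -2.18 and -2.02 against -0.82 to -0.13. For Hsd3b5, a steroid dehydrogenase of male liver that the diet lowered, the same mice kept the most, 2.80 and 3.62 against -4.48 to 1.24. Mice 5 and 6 were thus nearest to the normal diet group for all 4 genes. Cidea grouped the mice in another way, with 2.76, 2.28 and 2.54 in mice 3, 5 and 7 and 5.99 to 7.10 in the rest.

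**Figure D4:**
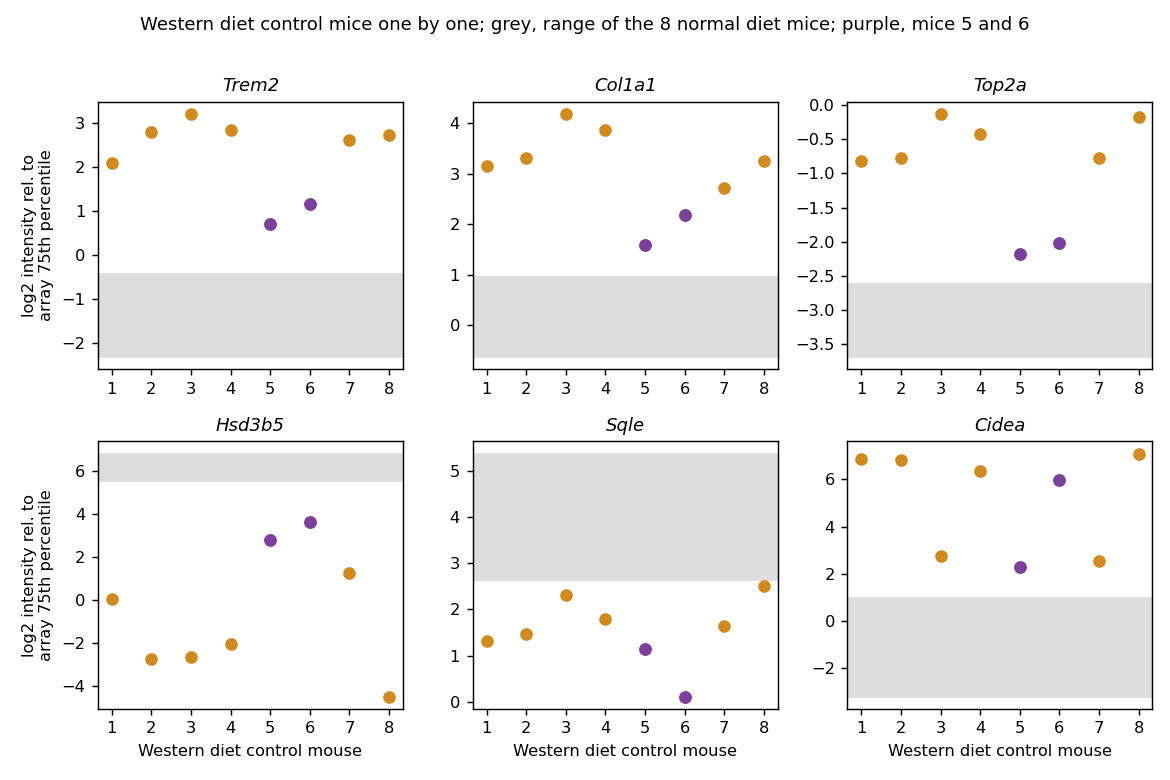
Level of 6 genes (log2 intensity relative to the array 75th percentile) in each Western diet control mouse, with the range of the 8 normal diet mice in grey and mice 5 and 6 in purple. For Trem2, Col1a1 and Top2a mice 5 and 6 are the lowest of the Western diet group, for Hsd3b5 the highest, and for Cidea mice 3, 5 and 7 are low.

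Pearson's r was computed for the 15 pairs of these genes and Sqle, an enzyme of cholesterol synthesis, over the 8 Western diet control mice, and 9 pairs had an exact permutation p that passed after Benjamini-Hochberg adjustment over the pairs, none of them with Cidea. By Spearman's coefficient 3 of the 15 passed, namely Trem2 with Col1a1, Trem2 with Top2a and Top2a with Sqle. Each r was taken again without the pair of mice farthest from the median of the first gene, which were mice 5 and 7 for Cidea and mice 5 and 6 for the other genes. Trem2 with Col1a1 went from r = 0.920 (Spearman 0.976, exact permutation adjusted p = 0.0078, n = 8) to 0.675 (exact permutation p = 0.128, n = 6). Trem2 with Top2a went from r = 0.959 (Spearman 0.881, exact permutation adjusted p = 0.0078, n = 8) to 0.691 (exact permutation p = 0.111, n = 6). Top2a with Sqle went from r = 0.861 (Spearman 0.952, exact permutation adjusted p = 0.0081, n = 8) to 0.948 (exact permutation p = 0.00694, adjusted p = 0.104, n = 6). After adjustment 0 of the 15 pairs passed at n = 6. Leaving mice out by their values narrows the range and 6 mice leave little power, so whether the other relations rest on mice 5 and 6 cannot be told from these values, and Top2a with Sqle kept its r without them. In the 8 Western diet E171 mice 3 of the 15 pairs passed, namely Col1a1 with Top2a, Col1a1 with Hsd3b5 and Top2a with Hsd3b5. Both genes of a pair were read on the same array from the same piece of tissue.

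Leaving mice 5 and 6 out of the fit gave 12327 genes called, 4630 higher and 7697 lower, with 1537 and 623 at least 2-fold. For none of the genes examined did the difference move by more than 1.5 times. The median SD of a gene over 8 mice was 0.21 on the normal diet and 0.22 on the Western diet.

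The mice given E171 form a second diet comparison of 8 against 8 that shares no mouse with the controls. There 12480 of the 23382 genes passed (53.4%). Of the 1678 genes at least 2-fold changed in controls 1608 (95.8%) passed in the same direction, and of the 1968 in E171 mice 1866 (94.8%) passed in controls. Only 2 genes passed in both with opposite directions. The test of the difference between the diet effects called 0 genes (limma, 0% of 23382), with 1195 at an unadjusted p under 0.05, and 1 gene without the filter on dim probes. Values side by side were close for Osbpl3 (4.43 in controls and 4.77 in E171 mice), Gpat3 (3.40 and 3.36), Anxa2 (3.18 and 3.14), Avpr1a (-3.00 and -3.07), C8b (-2.83 and -3.03) and F7 (-1.14 and -1.23). They were farther apart for Cfd, adipsin (2.81, SE 0.81, and 5.92), and Susd4, a complement regulator (-3.25 and -1.85), but neither difference passed (adjusted p = 0.909 and adjusted p = 0.828).

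**Figure D5:**
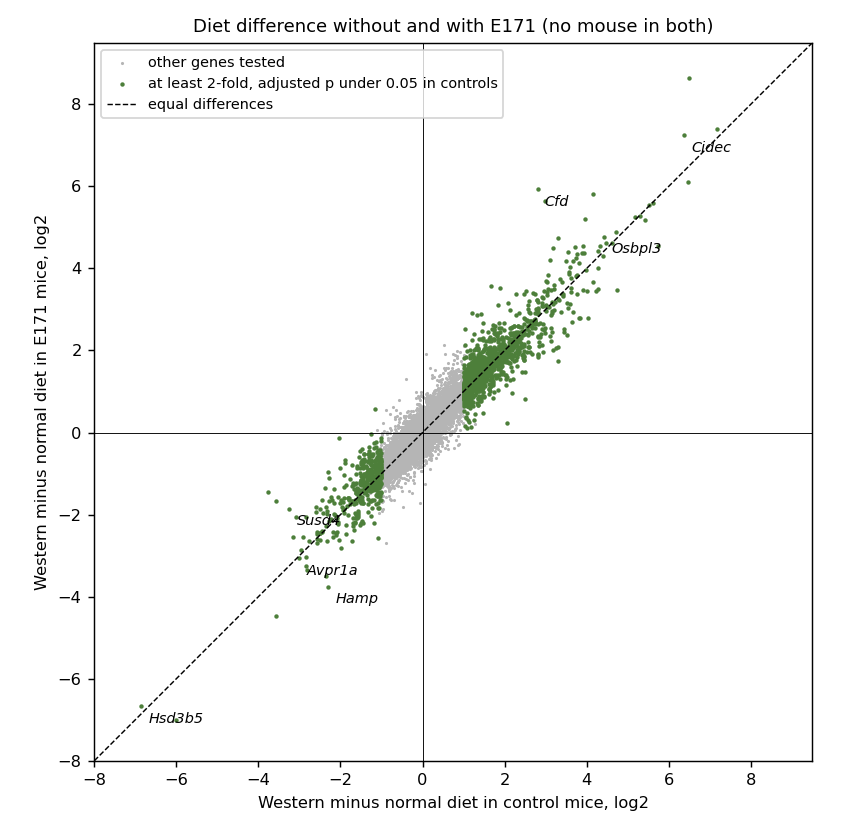
Difference between Western and normal diet (log2) in mice given E171 (vertical axis) against that in control mice (horizontal axis) for the 23382 genes tested, with the 1678 genes at least 2-fold changed in controls in green. The comparisons share no mouse, and the points lie along the dashed line of equal differences, with Cfd above it.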

How the data were processed

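Liver RNA of 32 male mice was hybridised to one-colour Agilent arrays, 1 array per mouse. The deposited intensities came from Agilent Feature Extraction 10.10.1.1, which corrected background and detrended each array, per the file headers. Other flags of 0 or 1 per spot in the deposited files mark spots well above background, saturated spots and outliers. The deposited log2 table was normalized between arrays by the authors in a way not given in the sources used here, and limma is named per the submitters' processing notes. Probe positions are those of mm9, per the file headers.

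Control spots and outlier spots were left out, intensities were divided by the 75th percentile of their array, and log2 was taken. Probes well above background on 6 of 8 arrays of either control group were kept (35365 of 56605), and 1 probe stood for each gene, the one with the highest mean over the 16 control arrays. Of the 23382 genes, 17666 had a name and 5716 were known by probe only. Genes with several probes numbered 7660. A total of 23 genes had at least 1 missing value and were fitted on the rest. All 32 arrays entered 1 limma 3.58.1 fit (R 4.3.3) with 4 group means, tested with Benjamini-Hochberg adjustment at 0.05 over all genes. The script was tested on simulated data and recovered 69.7% of genes changed by 0.5 on the log2 scale, 88.1% of those changed by 1 and 97% of those changed by 2 in the diet comparison (23382 genes). For the difference of the diet effect it recovered 85% of genes changed by 1 and 98% of those changed by 2. Only 66, 67 and 67 genes were changed for the diet, far fewer than the 11143 called here. The shares therefore check the script and do not give the power of this comparison. Alternatives were other scalings, background correction, filters, blocks and leaving out each mouse.

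A bound is the mean of the group above background over the background limit of the other group's arrays, as a fold. It holds for the intensities used here and not under other background corrections. Genes named were drawn by a rule from the members of each list with the largest changes, up to 4 rises and 3 falls. The rule also held the largest changes and largest moderated t of all named genes, the largest bounds and the 6 genes of the correlations. Not every gene that it selects is named. Left out above are, among others, Gpnmb, Tinag and Themis, with the largest bounds (51-fold, 14.8-fold and 12.3-fold), and Ly6d, Tff3 and Apoa4. Named outside that rule, after their values were seen, were Alb, Scd1, Apob, Haao, Hnf4a, Glul, C8a, C3, Ccl2, Il1b, Tlr4, B2m, Clec4f, Timd4, Adamts4, Sox9, Krt8, S100a11, Krt23, Cdkn2a, Gpc3, Cd44 and Pcna. The comparison and the gene lists were chosen with earlier results of these data known. Probes for close paralogs, such as the Cyp2c, Gstm, Hsd3b and Serpina families, may share signal. A probe chosen for its high mean may lie far above other members of its list, as for Ms4a4c, Cd4, Csf3r and Siglech, all counted lower. What such probes read was not tested.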

Additional observations from a re-analysis of the deposited data

Results flagged for a closer look

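In each group of 8 mice, the levels of the 161 called genes named in the text were searched for a single mouse far from the other 7, by Dixon's criterion for 8 samples, and 26 of 322 groups held one. Chance alone marks about 1 group in 20. All values are log2 levels relative to the array 75th percentile, and every one of these genes kept its call without the mouse named.

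Western diet mice 5 and 6 account for 12 of the 26. Mouse 5 was the lowest of its group for C5ar1 (-2.92, the others -1.88 to -1.32), F13a1 (-3.46, the others -2.34 to -1.65), Hk2 (-1.89, the others -0.99 to -0.46), Pkm (2.37, the others 3.12 to 3.77) and Slc16a3 (-1.62, the others -0.68 to 0.15). All 5 genes were raised by the diet, so this mouse lay nearest to the normal diet group. Mouse 6 was the lowest for Fabp5 (2.97, the others 4.14 to 4.55), Fads2 (4.92, the others 5.30 to 5.54), Gdf15 (2.29, the others 3.71 to 4.93), Gm10639 (4.31, the others 5.60 to 6.42), Mthfd1l (-3.94, the others -2.59 to -1.83) and Slc51b (-4.27, the others -2.37 to -1.73). It was the highest for Foxa2 (4.10, the others 3.06 to 3.53). Fabp5 is a gene that the diet lowered, and there mouse 6 lay farthest from the normal diet group.

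Among normal diet mice, mouse 5 was the highest for the plasma protein genes Fga (7.77, the others 6.97 to 7.29) and Itih3 (8.65, the others 7.58 to 7.99), and for Lcn2 (4.61, the others -0.75 to 1.31), Tfr2 (7.08, the others 6.65 to 6.85), Slc13a3 (3.50, the others 1.99 to 2.68) and Clec4e (-5.00, the others -7.62 to -6.42). It was the lowest for Slc22a27 (-5.01, the others -3.84 to -2.89). Mouse 4 was the highest for Gstm2 (5.76, the others 4.70 to 4.98) and Slc51b (-1.66, the others -4.17 to -3.02), and the lowest for Gdf15 (-0.14, the others 1.68 to 3.32) and Serpina9 (-2.75, the others -1.11 to 0.32). Single values were those of mouse 1 for Krt20 (-3.99, the others -7.40 to -6.94), mouse 6 for Apom (5.97, the others 6.64 to 6.97) and mouse 8 for Adamts4 (-3.46, the others -2.67 to -2.05). The part of health, feeding or sample handling in these values was not tested.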

How the results depend on the processing

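Of the 161 called genes named, 158 kept their call and direction under every alternative run. Alb (-0.01 and -0.03) and C3 (-0.13 and -0.15) lost it with quantile normalization and the deposited log2 table, and Srebf1 (0.50) without normal diet mouse 5. Differences moved by over 1.5 times for 56 of the 161 with normexp background correction (all smaller), 28 with the deposited table and 9 with quantile normalization, and for 0 when any single mouse was left out. Genes called numbered 10782 with quantile normalization, 11624 with median scaling, 11611 with normexp and 9570 with the deposited table, where the genes called lower fell to 4357. The higher share of the calls was 39.1% in the fit reported, 45.3% with quantile normalization, 34.4% with median scaling, 31.5% with normexp and 54.5% with the deposited table. Leaving out each mouse gave 10049 to 11936 genes called, 4046 to 4537 higher and 6003 to 7399 lower, and 1660 to 1678 of the 1678 2-fold calls were kept. The test of the difference between E171 and control mice called 1 gene without the filter on dim probes, and 3 correlation pairs passed in the Western diet E171 mice. The cause was not tested. With every probe in place of 1 per gene, 15964 of 35365 probes were called. After each group's mean was subtracted from every gene, same-numbered mice of the diets correlated at 0.005 to 0.244, 6 of 8 pairs over 0.1. By these deviations 3 of 8 normal diet mice were closest to their own number. Of the pairs, 6 lay on 1 slide. All of these correlations were positive, and whether they come from a shared slide, litter or day was not tested. The labels do not say that a number marks a shared litter or day, so the fit reported did not use the numbers as pairs. With the replicate block 11604 genes were called, and with the slide as a block 11386. Dim probes set the limit: where a gene is near background, only the direction is known, or a bound that holds for the intensities used here.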

Other observations

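Markers of less frequent cell types were counted beside the shares of all genes, 18.6% higher and 29% lower. Of 10 tested dendritic cell markers (11 listed) 6 were higher and 2 lower (median 0.38), and of 8 tested neutrophil markers (10 listed) 3 were higher and 1 lower (median 0.67, or 0.00 with normexp correction). Of 7 tested platelet markers (8 listed) 3 were higher and 0 lower, of 7 tested smooth muscle markers (8 listed) 4 were higher and 0 lower, and of 5 tested Schwann cell markers (7 listed) 4 were higher and 0 lower. Plasma cell markers were higher in 1 of 5 tested (8 listed), mesothelial markers in 1 of 5 tested (8 listed) and mast cell markers in 0 of 2 tested (8 listed).

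Of 6 tested erythroid markers (8 listed) 0 were higher and 2 lower, and of 7 tested adipocyte markers (8 listed) 1 was higher and 4 were lower (median -0.37), with a mean level of -0.80 to -0.53 on the normal diet and -1.18 to -0.60 on the Western diet.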
